A study of Mus musculus with 6 samples.

Results

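De novo lipogenesis, the making of fatty acids from acetyl-CoA, was followed here through 10 genes, Acly, Acaca, Acacb, Fasn, Scd1, Elovl6, Me1, Srebf1, Mlxipl and Thrsp, in eWAT, the epididymal white fat pad of male mice. The genes were chosen by symbol as enzymes and regulators of this pathway, with earlier results of these data known. All 10 of them were found among the 54532 genes of the deposited count table. RNA-seq of eWAT compared 3 samples from mice with cachexia, a wasting condition, and 3 samples from control mice. The mice were male C57BL/6 animals aged 6 to 10 weeks. Cachexia had been induced by subcutaneous inoculation with LLC (Lewis lung carcinoma) cells, which derive from a lung tumor of a mouse, and tissue was taken on day 21. The study counted a mouse as cachectic when it had lost more than 20% of its body weight, and all tumors came from a single cell line. How the control mice were handled, beyond carrying the label control, is not given in the sources used here. The labels number the samples within each group without saying that each came from a separate mouse. The p-values therefore weigh the group difference against the spread between these samples, which are not known to be separate animals. For short, the samples are called mice below, and their values are given in the order of their replicate numbers.

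In lipogenic cells, citrate from mitochondria is split by ATP citrate lyase to acetyl-CoA, acetyl-CoA carboxylase turns this into malonyl-CoA, and fatty acid synthase joins the units with the reducing power of NADPH into palmitate. Palmitate can then be lengthened by ELOVL6 and given a double bond by stearoyl-CoA desaturase before it is stored in triglyceride. Insulin and carbohydrate raise the pathway in adipose tissue and liver through the transcription factors SREBP-1 and ChREBP, and fasting lowers it.

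Of the 10 lipogenic genes, 7 had significantly lower and 1 had significantly higher expression in cachectic than in control eWAT, and 2 did not pass the test. Fasn fell most, by 20.2-fold, followed by Elovl6 (11.5-fold), Acly (6.93-fold), Scd1 and Thrsp (5.07-fold each), Me1 (4.82-fold) and Srebf1 (3.45-fold). Acacb rose 2.92-fold. Acaca had a 2.77-fold lower and Mlxipl a 1.19-fold lower mean that did not pass the test. Over all 16003 genes with enough counts to test, 8.63% were called lower, 9% were called higher and 17.6% were called in either direction (adjusted p under 0.05 in edgeR's quasi-likelihood test, with Benjamini-Hochberg adjustment over all of these genes). All 10 lipogenic genes passed the filter on low counts. The values of the cachectic and control mice did not overlap for 8 of the 10, 7 of them lower, against 40.5% of all tested genes in either direction and 20.1% lower in cachexia. The median log2 fold change of cachectic over control mice was -2.30 for the 10 genes and -0.00306 for all genes tested. The genes share a pathway and the samples and were chosen with earlier results of these data known. These counts therefore describe the list and are not a test of it. In bulk tissue, fewer cells of a type and less RNA per cell cannot be told apart.

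The total count was between 14928766 and 18855546 per sample, and the 3 cachectic libraries were the 3 smallest. The lipogenic genes were deeply counted, from 129 counts of Elovl6 in cachexia replicate 1 to 648631 counts of Scd1 in control replicate 3, so that counting error is small beside the spread between mice. Expression is given as CPM, the count scaled to a common library total after TMM normalization. Together the 10 genes took 3.11%, 5.56% and 5.07% of all counts in controls 1 to 3 and 0.636%, 1.16% and 0.947% in cachectic mice 1 to 3. These shares averaged 4.58% ± 1.3 (SD, n = 3) in control and 0.914% ± 0.264 (SD, n = 3) in cachectic mice and did not overlap. Without Scd1 the remaining genes took 1.55% ± 0.735 (SD, n = 3) of the counts in control and 0.285% ± 0.0962 (SD, n = 3) in cachectic mice. Both comparisons of shares had a two-sided exact permutation p of 0.1, the lowest value possible with 3 against 3 samples.

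**Figure D1:**
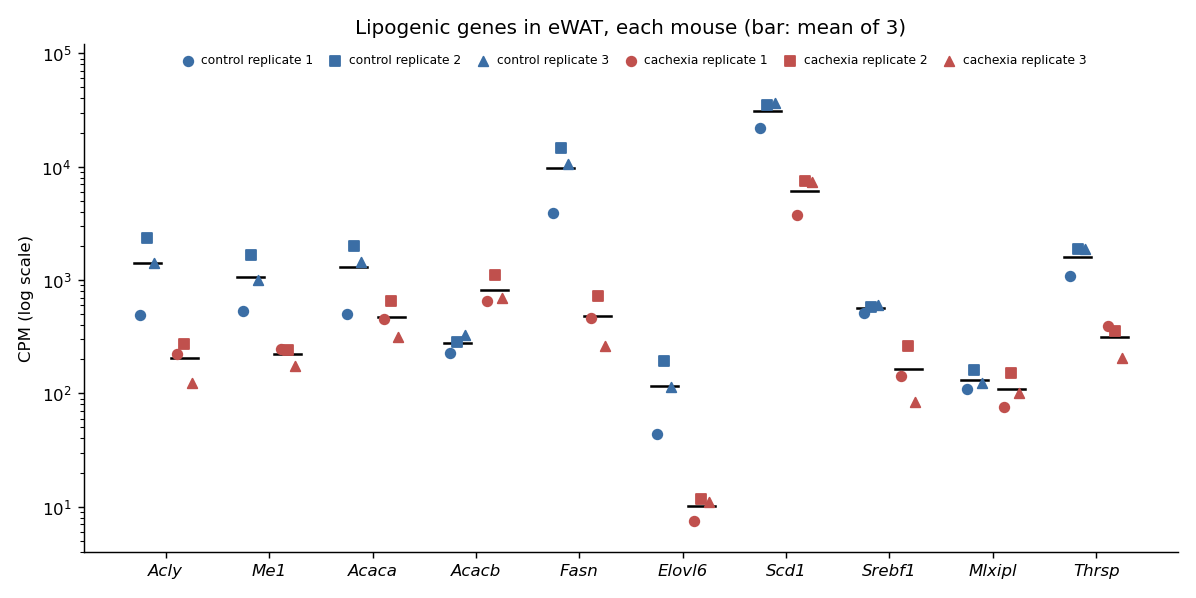
Expression of the 10 lipogenic genes in each mouse, in CPM on a log scale, with controls in blue, cachectic mice in red and a bar at the mean of the 3 mice. Scd1 lay between 21874 and 36753 CPM in controls and between 3752.7 and 7427.5 CPM in cachectic mice, and Acacb is the gene whose red points all lie above its blue points.

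The genes lie on several chromosomes, and promoter sequences of RefSeq (GRCm38.p6) were available for 9 of the 10, as 13 windows upstream of annotated starts. Upstream sequences of 4 genes are shown because they span the range of the responses, from Fasn, Acly and Srebf1, which were lower, to Acacb, which was higher. They run 5′ to 3′ on the strand of the gene, and capitals mark CCAAT or GGGCGG on either strand. For Fasn the 250 bases are chr11:120824548-120824797 on the minus strand, for Acly chr11:100528001-100528250 on the minus strand, for Srebf1 chr11:60210472-60210721 on the minus strand, before the start that lies farthest inside the gene, and for Acacb the 241 bases are chr5:114165268-114165508 on the plus strand, before a start inside the deposited gene and up to the nearest annotated exon.
Fasn: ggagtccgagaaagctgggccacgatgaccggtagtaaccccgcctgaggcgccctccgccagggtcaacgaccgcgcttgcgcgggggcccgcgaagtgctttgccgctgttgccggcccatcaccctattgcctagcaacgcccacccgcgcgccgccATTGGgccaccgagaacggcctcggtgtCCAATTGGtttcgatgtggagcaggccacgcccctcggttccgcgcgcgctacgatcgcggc
Acly: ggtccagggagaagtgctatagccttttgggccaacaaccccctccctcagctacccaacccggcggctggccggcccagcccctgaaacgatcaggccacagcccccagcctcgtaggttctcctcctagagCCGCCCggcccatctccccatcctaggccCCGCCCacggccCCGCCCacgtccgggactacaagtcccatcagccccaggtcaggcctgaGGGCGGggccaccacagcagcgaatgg
Srebf1: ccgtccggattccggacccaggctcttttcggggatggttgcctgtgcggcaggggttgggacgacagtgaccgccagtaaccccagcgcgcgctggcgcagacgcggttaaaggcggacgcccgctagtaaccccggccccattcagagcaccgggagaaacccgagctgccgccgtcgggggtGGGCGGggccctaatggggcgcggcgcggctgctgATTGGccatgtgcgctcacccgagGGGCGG
Acacb: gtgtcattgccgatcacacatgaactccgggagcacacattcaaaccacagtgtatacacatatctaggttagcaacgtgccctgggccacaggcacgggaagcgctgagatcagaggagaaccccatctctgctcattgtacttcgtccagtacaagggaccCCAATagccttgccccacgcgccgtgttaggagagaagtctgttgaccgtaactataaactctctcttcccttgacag
The Fasn window held 3 matches to CCAAT, the letters that NF-Y binds, at 90 to 86, 62 to 58 and 59 to 55 bases before the start, and the last 2 of these overlap on opposite strands. The Acly window held 4 matches to GGGCGG, the core of the GC box, and the Srebf1 window held 2 beside 1 CCAAT match. In the Acacb window there was 1 CCAAT match and no match to GGGCGG. Searched on both strands in the 250 bases before the start of all 32851 promoters of the table, CCAAT was found in 33.8% and GGGCGG in 32.7%, against 7 and 5 of the 13 windows of the lipogenic genes. The palindromic E-box CACGTG was found in 6.02% of all windows and in 1 of the 13, upstream of Mlxipl, and TCACNCCAC, a form of the sterol response element, in 1.05% of all windows and in 1 of the 13, at another start of Mlxipl. Neither overlapped another match. A match describes letters and not a bound site, and no statement about a factor follows from these windows.

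The supply of substrate and NADPH was described by Acly and Me1. Acly (ENSMUSG00000020917, chromosome 11 from 100476353 to 100528000) encodes ATP citrate lyase, and its expression was 490.8, 2370.3 and 1409.0 CPM in controls 1 to 3 and 221.6, 270.7 and 124.2 CPM in cachectic mice 1 to 3. Every cachectic mouse lay below every control mouse, although control replicate 1 was closer to cachexia replicate 2 than to control replicate 2. The log2 fold change was -2.79 (standard error, SE, 0.562, edgeR adjusted p = 0.0158). Acly missed the threshold when control replicate 3 (log2 fold change -2.81, adjusted p = 0.0541) or cachexia replicate 1 (-2.85, adjusted p = 0.0501) was left out. Me1 (ENSMUSG00000032418, chromosome 9 from 86581371 to 86695953) encodes the cytosolic malic enzyme, which yields NADPH. It was expressed at 538.2, 1661.2 and 1001.7 CPM in the control and 248.2, 242.3 and 173.9 CPM in the cachectic mice. The cachectic mice were close to each other and below all controls, with a log2 fold change of -2.27 (SE 0.396, edgeR adjusted p = 0.00974).

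The 2 acetyl-CoA carboxylases had fold changes of opposite sign. Acaca (ENSMUSG00000020532, chromosome 11 from 84129672 to 84401651) encodes the cytosolic ACC1, whose malonyl-CoA feeds fatty acid synthesis. Its expression was 498.7, 1992.4 and 1429.1 CPM in the control and 452.7, 649.5 and 312.6 CPM in the cachectic mice. Control replicate 1 lay among the cachectic mice, below cachexia replicate 2, while the other controls lay above all of them. The log2 fold change of -1.47 (SE 0.49, edgeR adjusted p = 0.0758) did not pass the threshold, and without control replicate 1 it was -1.86 with an adjusted p of 0.016. Acacb (ENSMUSG00000042010, chromosome 5 from 114146535 to 114250761) encodes ACC2, which sits at the mitochondrial outer membrane, where malonyl-CoA restrains the import of fatty acids for oxidation. It was expressed at 229.0, 282.1 and 328.2 CPM in the control and 648.3, 1099.8 and 700.3 CPM in the cachectic mice. All cachectic mice were above all controls, and Acacb had a log2 fold change of 1.55 (SE 0.254, edgeR adjusted p = 0.0082).

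The balance of both carboxylases was compared within each mouse, so that library scaling cancels. Per gene length, in FPKM (the deposited level, divided by gene length and library size), the ratio of Acacb to Acaca was 0.814, 0.251 and 0.407 in controls 1 to 3 and 2.54, 3.00 and 3.97 in cachectic mice 1 to 3. Acaca was thus the more abundant of the pair in every control mouse and Acacb in every cachectic mouse. The log2 ratio of their counts was 2.84 higher in cachectic mice, and the two-sided exact permutation p was 0.1, the smallest that this design allows (0.15 after Benjamini-Hochberg adjustment over 3 ratios).

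Chain synthesis by Fasn showed the widest difference of the 10 genes. Fasn (ENSMUSG00000025153, chromosome 11 from 120805846 to 120824547) encodes fatty acid synthase, the enzyme that assembles palmitate. Its expression was 3871.7, 14709.3 and 10536.9 CPM in controls 1 to 3, against 461.3, 718.9 and 260.7 CPM in cachectic mice 1 to 3. Even the lowest control lay far above the highest cachectic mouse. The log2 fold change was -4.34 (SE 0.608, edgeR adjusted p = 0.00483), and it stayed between -4.74 and -3.91 in 18 other settings of the analysis.

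Elongation and desaturation followed with Elovl6 and Scd1. Elovl6 (ENSMUSG00000041220, chromosome 3 from 129532355 to 129638495) encodes the elongase that lengthens palmitate to stearate, and it was expressed at 44.2, 191.7 and 113.2 CPM in the control and 7.52, 11.7 and 11 CPM in the cachectic mice. Cachectic values were close together and far below the controls, which spread 4.34-fold among themselves. Its log2 fold change was -3.53 (SE 0.506, edgeR adjusted p = 0.00516). Scd1 (ENSMUSG00000037071, chromosome 19 from 44394451 to 44407709) encodes the stearoyl-CoA desaturase that makes oleate. It had 21874, 35043 and 36753 CPM in the control and 3752.7, 7427.5 and 7295.3 CPM in the cachectic mice. Controls spread 1.68-fold in Scd1, less than in Fasn, Acly or Elovl6. Its log2 fold change was -2.34 (SE 0.405, edgeR adjusted p = 0.00947). Scd1 and its paralogs Scd2, Scd3 and Scd4 are similar in sequence, and how reads that map to several of them were counted is not given in the sources used here, so their split is uncertain.

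Scd2, a desaturase named here as the paralog of Scd1, had 647.0, 784.5 and 721.7 CPM in the control and 52.3, 176.1 and 21.6 CPM in the cachectic mice. It also fell, with a log2 fold change of -3.11 (SE 0.679, edgeR adjusted p = 0.0207). The FPKM ratio of Scd2 to Scd1 was 0.0262, 0.0199 and 0.0174 in the control and 0.0124, 0.021 and 0.00262 in the cachectic mice, so the groups overlapped. The log2 ratio of counts differed by -1.24, cachectic minus control mice (two-sided exact permutation p = 0.3, adjusted p = 0.30 over 3 ratios), and -0.37 without cachexia replicate 3. A difference in response between both desaturases was therefore not shown.

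Among the regulators, Srebf1 (ENSMUSG00000020538, chromosome 11 from 60199089 to 60222581) encodes SREBP-1, which drives lipogenic genes in response to insulin. Its expression was 513.8, 579.0 and 602.0 CPM in the control and 143.5, 263.9 and 83.8 CPM in the cachectic mice. Controls lay within 1.17-fold of each other, the narrowest of the 10 genes, whereas cachectic mice spread over 3.15-fold, the widest. The log2 fold change was -1.79 (SE 0.377, edgeR adjusted p = 0.0188). Leaving out control replicate 2 (-1.77, adjusted p = 0.0559), control replicate 3 (-1.74, adjusted p = 0.0675) or cachexia replicate 1 (-1.70, adjusted p = 0.0621) placed Srebf1 just outside the threshold. Srebf1 shares 109 bases with Rai1 on the opposite strand. Whether strand was used in counting is not given in the sources used here, and Rai1, with 426 to 766 counts, had a log2 fold change of -0.14 (adjusted p = 0.612).

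Mlxipl (ENSMUSG00000005373, chromosome 5 from 135089890 to 135138382) encodes ChREBP, the carbohydrate-responsive partner of SREBP-1 in driving the pathway. Its expression was 108.2, 161.9 and 122.8 CPM in the control and 76.5, 152.6 and 100.8 CPM in the cachectic mice, and the groups overlapped. The log2 fold change was -0.25 (SE 0.266, edgeR adjusted p = 0.546). A gene-level count does not separate the isoforms of Mlxipl or of Srebf1. The FPKM ratio of Mlxipl to Srebf1 was 0.214, 0.284 and 0.208 in the control and 0.542, 0.588 and 1.22 in the cachectic mice, without overlap. This log2 ratio was 1.65 higher in cachectic mice by counts (two-sided exact permutation p = 0.1, adjusted p = 0.15 over 3 ratios).

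Thrsp (ENSMUSG00000035686, chromosome 7 from 97412938 to 97417730) encodes Spot 14, a small nuclear and cytosolic protein that accompanies lipogenesis and responds to thyroid hormone and carbohydrate. Its expression was 1087.8, 1866.1 and 1863.9 CPM in the control and 393.7, 353.6 and 203.5 CPM in the cachectic mice. No cachectic mouse came near the lowest control. The log2 fold change was -2.34 (SE 0.328, edgeR adjusted p = 0.00483), the same adjusted p as that of Fasn with a smaller change and a smaller error. Its paralog Mid1ip1, whose product binds ACC1, is described with the pathway genes.

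**Figure D2:**
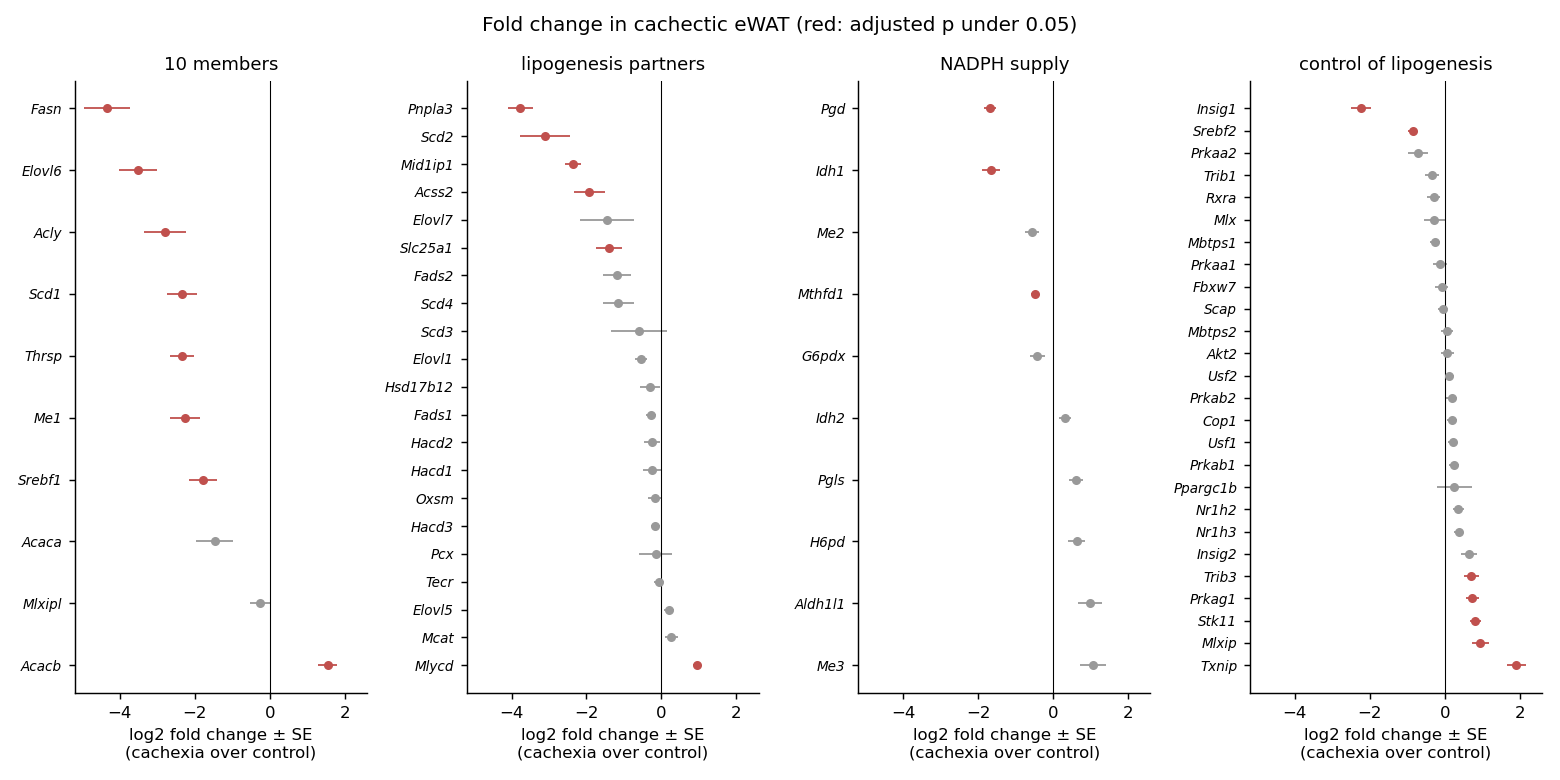
Log2 fold change of cachectic over control mice with its SE, for the 10 lipogenic genes, the tested genes of 2 lists of related enzymes and those of a list of regulators, with genes called at an adjusted p under 0.05 in red. The lipogenic genes run from -4.34 for Fasn to 1.55 for Acacb, and the other lists have medians of -0.31, -0.0526 and 0.16.

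Levels were compared between genes per length, as FPKM. In control mice the order of the mean level was Scd1 (6373 ± 1654 FPKM, SD, n = 3), Fasn (874.7 ± 491.2), Thrsp (724.1 ± 201.3), Me1 (273.6 ± 144.1), Acly (266.0 ± 175.1), Srebf1 (99.0 ± 7.89), Acaca (75.5 ± 43.5), Acacb (28.7 ± 5.06), Mlxipl (23.3 ± 4.89) and Elovl6 (17.8 ± 11.3). The ranges over mice were separate between Scd1 and Fasn and between Thrsp and Me1, and all other neighbors overlapped. In cachectic mice the order was Scd1 (1244 ± 418.4 FPKM, SD, n = 3), Thrsp (141.5 ± 45.0), Acacb (82.8 ± 24.9), Me1 (56.3 ± 10.6), Fasn (42.9 ± 20.5), Acly (38.0 ± 13.8), Srebf1 (28.4 ± 15.9), Acaca (27.0 ± 9.66), Mlxipl (19.4 ± 6.82) and Elovl6 (1.53 ± 0.338). Here Scd1 was separate from Thrsp, Acacb from Me1 and Mlxipl from Elovl6. Scd1 thus held the highest and Elovl6 the lowest place in both groups, Fasn moved from place 2 to place 5, and Acacb moved from place 8 to place 3.

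**Figure D3:**
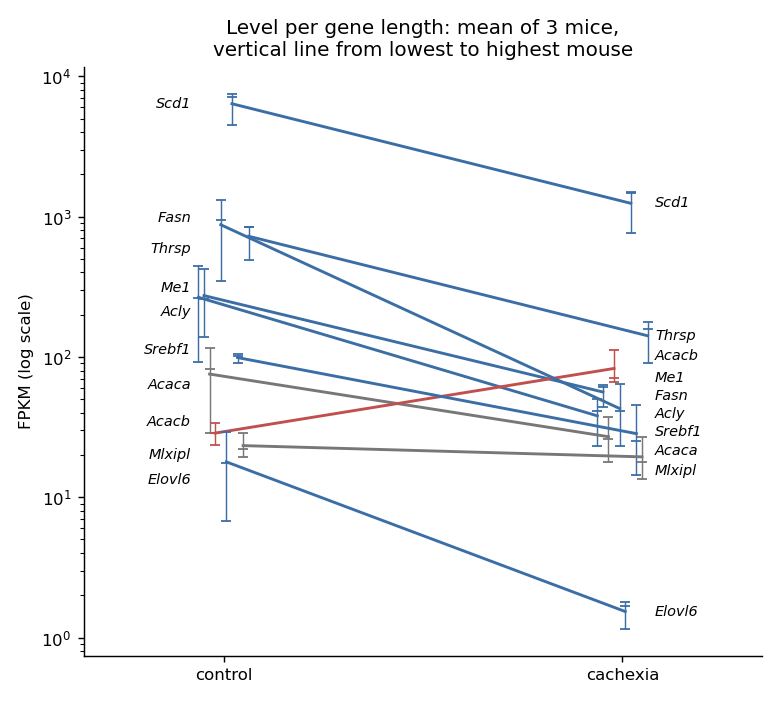
Mean FPKM of each lipogenic gene in control and cachectic mice on a log scale, with vertical lines from the lowest to the highest mouse, blue for genes called lower, red for the gene called higher and gray for genes not called. Acacb rises from 28.7 to 82.8 FPKM and crosses Fasn, which goes from 874.7 to 42.9 FPKM.

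Control mice differed among themselves across the list. Control replicate 1 was the lowest control for all 10 genes, Acacb included. In 5 genes control replicate 2 exceeded control replicate 1 at least 2-fold, by 4.83-fold for Acly, 4.34-fold for Elovl6, 4-fold for Acaca, 3.80-fold for Fasn and 3.09-fold for Me1. Counted in either direction, 11.7% of all tested genes (1872) differed at least 2-fold in this pair. The ratio of control replicate 2 to control replicate 1 was 1.72 for Thrsp, 1.6 for Scd1, 1.5 for Mlxipl, 1.23 for Acacb and 1.13 for Srebf1. Over all tested genes, the second principal component (16% of the variance) also set control replicate 1 apart, at 54.3 against -34.0 and -28.7 in the other controls. Among cachectic mice, replicate 3 was lowest for Acly, Acaca, Fasn, Me1, Srebf1 and Thrsp, and replicate 1 for Acacb, Scd1, Elovl6 and Mlxipl. Averaged over the 10 genes, the log2 CPM relative to the mean of all 6 mice was 0.231, 1.48 and 1.15 in controls 1 to 3 and -1.06, -0.504 and -1.3 in cachectic mice 1 to 3. Without control replicate 1, 9 of the 10 genes passed the test, Acaca being added, and 2187 genes did so in all.

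**Figure D4:**
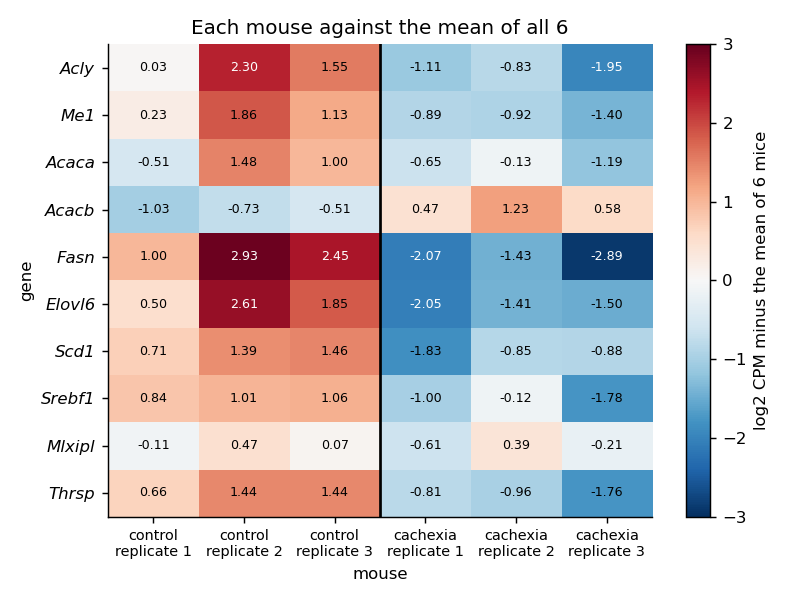
Log2 CPM of each lipogenic gene in each mouse minus the gene's mean over all 6 mice, with red above and blue below that mean. Control replicate 1 has the lowest value of the controls in every row, such as 0.0324 against 2.30 in control replicate 2 for Acly, and Acacb is the only row with blue in all controls and red in all cachectic mice.

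The 5 protein-coding genes outside the list whose profile over the 6 mice lay nearest to this average profile were Acss2, Pclo, Paqr9, Ptges and Aspa. Their root mean square distances from it were 0.154, 0.205, 0.218, 0.218 and 0.226 on the log2 scale, over 6 mice that fall into 2 groups. Acss2, which makes cytosolic acetyl-CoA from acetate, had 81.7, 267.7 and 161.7 CPM in the control and 39.9, 59.9 and 34.4 CPM in the cachectic mice. Its lowest control was replicate 1, as in the average profile by which Acss2 was picked. The 4 other genes had log2 fold changes between -2.37 (Ptges) and -1.68 (Aspa). Among the lipogenic genes themselves, Me1 (0.244) and Thrsp (0.354) were nearest to the average and Acacb (1.74) was farthest from it.

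Of 22 further genes of fatty acid synthesis, elongation, desaturation and related lipid steps, 21 were tested (Elovl3 was not). Among these 21 genes, 5 were significantly lower (8.63% of all 16003 tested genes were) and 1 significantly higher (9%) in cachectic mice. The lower genes were Pnpla3 (log2 fold change -3.77, adjusted p = 0.00133), a lipid droplet protein, Mid1ip1 (-2.36, adjusted p = 0.00134), Acss2 (-1.93, adjusted p = 0.0198), Scd2 and Slc25a1 (-1.40, adjusted p = 0.0299), the mitochondrial citrate carrier that supplies ATP citrate lyase. Mid1ip1 fell from 102.1, 57.4 and 76.7 CPM in the control to 15.7, 14.9 and 15.4 CPM in the cachectic mice. Mlycd, which encodes the decarboxylase that removes malonyl-CoA, rose from 41.4, 39.4 and 44.0 CPM to 78.6, 86.4 and 76.2 CPM (log2 fold change 0.95, adjusted p = 0.00336). The other 15 were not called, among them the enzymes that complete each elongation cycle, Hsd17b12 (-0.31), Hacd1 (-0.24), Hacd2 (-0.25), Hacd3 (-0.16) and Tecr (-0.06). The median log2 fold change of the 21 genes was -0.31, against -0.00306 over all genes tested. Without control replicate 3 the number of called genes of this list dropped from 6 to 3, and that over all tested genes from 2821 to 828.

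NADPH for the pathway can also come from the pentose phosphate route, cytosolic isocitrate dehydrogenase and folate metabolism. Of 10 genes listed for NADPH supply, all tested, 3 were significantly lower (8.63% of all tested genes were) and none was higher (9%) by edgeR. At an unadjusted p under 0.05 edgeR had 4 higher and 4 lower genes. The list also holds genes of other compartments, Idh2, Me2 and Me3 of mitochondria and H6pd of the endoplasmic reticulum. Pgd, the second NADPH-forming enzyme of the pentose phosphate route, had 442.7, 544.3 and 484.4 CPM in the control and 159.6, 166.9 and 133.7 CPM in the cachectic mice (log2 fold change -1.68, adjusted p = 0.00164). Idh1, the cytosolic isocitrate dehydrogenase, had a log2 fold change of -1.65 (adjusted p = 0.00583), and Mthfd1 one of -0.48 (adjusted p = 0.0253). G6pdx, which opens the pentose phosphate route, had 203.9, 237.9 and 255.2 CPM in the control and 183.5, 127.1 and 211.1 CPM in the cachectic mice, which overlap (log2 fold change -0.42, adjusted p = 0.195). Positive fold changes were found for 5 of the 10 genes, and the median was -0.0526. These were Me3 (1.08, adjusted p = 0.0697), Aldh1l1 (0.99), H6pd (0.63), Pgls (0.61) and Idh2 (0.31). Me3 was barely expressed, at a mean of 2.08 CPM in control and 4.4 CPM in cachectic mice. DESeq2 called 7 of these 10 genes, 4 higher and 3 lower. It also called more genes over all 16003 tested, 3884 against 2821 by edgeR.

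Of 26 genes that control lipogenesis, all tested, 5 were significantly higher (9% of all tested genes were) and 2 significantly lower (8.63%) in cachectic mice. Txnip, a thioredoxin-binding protein gene that ChREBP and its relatives induce, had 716.9, 1226.3 and 1023.8 CPM in the control and 3655.3, 3794.5 and 3689.1 CPM in the cachectic mice (log2 fold change 1.91, adjusted p = 0.00398). The other higher genes were Stk11 (0.82, adjusted p = 0.00953), which encodes the kinase that activates AMPK, Prkag1 (0.74, adjusted p = 0.0271), a subunit of AMPK, Mlxip (0.95, adjusted p = 0.0302), the MondoA relative of Mlxipl, and Trib3 (0.71, adjusted p = 0.0476). AMPK subunit genes did not move together. In the list Prkaa1 (-0.13), Prkaa2 (-0.70, adjusted p = 0.109), Prkab1 (0.24) and Prkab2 (0.19) were not called. Outside the list the subunit gene Prkag3 was lower (-3.95, adjusted p = 0.00204). The lower genes were Insig1 (-2.24, adjusted p = 0.00315), which retains SREBP in the endoplasmic reticulum and is itself a target of SREBP, and Srebf2 (-0.85, adjusted p = 0.00514), which encodes the SREBP of sterol synthesis. Insig1 went from 226.9, 205.4 and 276.2 CPM to 53.1, 64.9 and 31.5 CPM. Several partners of Srebf1 and Mlxipl were not called, such as Scap (-0.04), Mbtps1 (-0.26), Mlx (-0.27), Nr1h3 (0.37) and Usf1 (0.22). Over the 26 genes the median log2 fold change was 0.16. The number called dropped from 7 to 4 without control replicate 2 and to 3 without control replicate 3, and it was 3 when libraries were scaled to adipocyte markers. Over all tested genes the number called also dropped in these settings, from 2821 to 1312, 828 and 1803.

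Markers of the cells that eWAT can hold moved in part with the groups. Adipocyte markers, all 16 tested, had 2 genes higher, 1 lower and a median log2 fold change of -0.04. None of the 16 was at 0 in any mouse, and their summed level was 38176 to 54111 CPM in control and 40339 to 57727 CPM in cachectic mice. Scaled to these markers instead of by TMM, the lipogenic genes had log2 fold changes of -2.75 (Acly), -1.41 (Acaca), 1.57 (Acacb), -4.27 (Fasn), -2.31 (Scd1), -3.48 (Elovl6), -2.27 (Me1), -1.77 (Srebf1), -0.23 (Mlxipl) and -2.36 (Thrsp), and 9 of them were called, Acaca included (adjusted p = 0.0148). With that scaling 689 genes were called higher and 1114 lower over all tested genes, against 1440 and 1381 with TMM. The summed markers overlapped between the groups, and this scaling moved the median log2 fold change of all genes by -0.0569. Single adipocyte markers ran from -3.14 (Lep, adjusted p = 0.0475) to 1.08 (Pnpla2, adjusted p = 0.0197) in log2 fold change. The most abundant markers, which weigh most in the sum, moved in opposite directions, and none of them was called. From control to cachectic mice, mean CPM went from 11679 to 6675 for Lpl, from 10161 to 13121 for Cfd and from 7747 to 9933 for Fabp4. Similar sums therefore do not show that the single markers were unchanged.

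Fat progenitor markers had 1 higher and 4 lower of 9 tested genes, and their sum was 5385 to 6187 CPM in control and 2494 to 3454 CPM in cachectic mice. Endothelial markers had 4 higher of 8 (summed 1527 to 1620 against 2219 to 3243 CPM), and macrophage markers 2 higher and 1 lower of 8, with overlapping sums. Neutrophil markers had 8 higher of 9 tested, with sums of 32.2 to 49.2 CPM in control and 254.5 to 754.7 CPM in cachectic mice, and Ly6g was at 0 in all controls. Erythroid markers were higher in 6 of 6 tested, with sums of 252.5 to 450.8 against 1334 to 2856 CPM. Brown adipocyte markers had 1 higher (Kcnk3) and 1 lower (Dio2) of 6 tested genes. Their sums were 26.8 to 49.6 CPM in control and 56.8 to 230 CPM in cachectic mice, without overlap. Kcnk3 had a mean of 21.5 CPM in control and 96.2 CPM in cachectic mice. Cox8b, which was not called (adjusted p = 0.143), reached 34.7 CPM in cachexia replicate 2. Ucp1, which defines brown adipocytes, was at 0 or near it in every mouse. Of 7 tested lymphocyte and 7 mesothelial markers edgeR called none (2 and 1 lower at an unadjusted p under 0.05) and DESeq2 none, and of 4 muscle markers edgeR called 1 lower. Epididymis markers summed to at most 4.16 CPM, none was tested, and 1 was at 0 in all mice. The part of these other cell types in the lipogenic values was not tested.

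**Figure D5:**
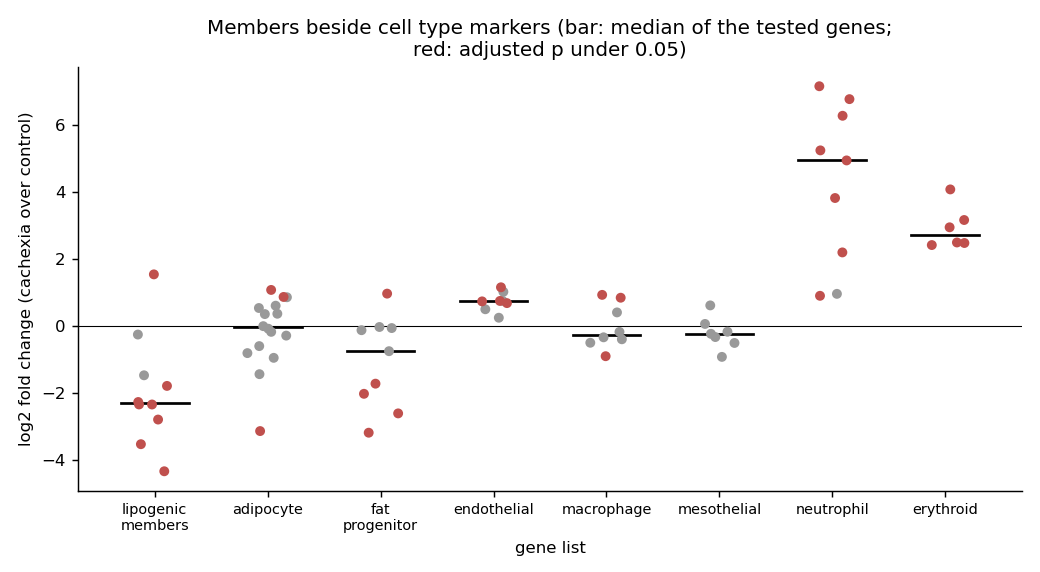
Log2 fold change of cachectic over control mice for each tested lipogenic gene and for each tested marker of 7 cell types, with genes called at an adjusted p under 0.05 in red and a bar at the median of each list. The lipogenic genes have a median of -2.30 and the adipocyte markers one of -0.04, and the neutrophil and erythroid medians are 4.95 and 2.72.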

How the data were processed

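RNA-seq of eWAT was analyzed in 3 cachectic and 3 control samples, grouped by their labels. The authors removed adapter, poly-N and low-quality reads, used Hisat2 to align the 150-base paired reads and featureCounts (1.5.0-p3 in the submitters' processing notes) to count them, and deposited raw counts. The deposited FPKM values were calculated by the authors from count and gene length, and carry a further factor of 0.932 to 1.06 per sample. The notes name mm9, but 99.8% of the deposited gene identifiers are in GENCODE M21 (GRCm38), 98.3% of these with the same coordinates, 9 of the 10 lipogenic genes among them (Scd1 differs). Coordinates are those of the files. A deposited table of the authors' own comparison (DESeq2 1.16.1) was not used, nor were its 6 columns of per-sample values and 2 of group means.

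Of 54532 genes, 29764 had a count. The main test was edgeR 4.0.16 under R 4.3.3. It used TMM factors, the filterByExpr filter and the quasi-likelihood test with no covariate, and p-values of the 16003 genes kept were adjusted by Benjamini-Hochberg, with calls made under 0.05. TMM factors were 0.937 to 1.07 and the biological coefficient of variation was 0.264. Depth was 14928766 to 18855546 counts per sample. Exact permutation tests of ratios used log2 values with a pseudocount of 0.5, and those of count shares used the percentages themselves. Principal components used log2 CPM. No samples had near-identical counts. Named are all 10 genes, up to 5 genes per pathway list and direction with the smallest p plus those named in a pair, genes of marker lists, the 5 genes nearest to the mean profile, and genes overlapping a member. Genes of the pathway lists that were not called are named as examples chosen after their values were seen, as is Prkag3, which is outside the lists. The genes and lists were chosen with earlier results of these data known. Other settings were RLE size factors, plain totals, scaling to adipocyte markers, DESeq2 1.42.0, a replicate block, no filter, a minimum of 10 counts in all samples, leaving out samples in turn, limma-voom, limma 3.58.1 on log2 FPKM with pseudocounts of 1 and 0.1, protein-coding genes alone and, for ratios, a pseudocount of 2 and FPKM. The scripts were tested on simulated counts. Promoters were taken from RefSeq.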

Additional observations from a re-analysis of the deposited data

How the results depend on the processing

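No log2 fold change of the 10 lipogenic genes changed sign in any of 18 other settings. Fasn, Scd1, Elovl6, Me1, Thrsp and Acacb were called in all 18 settings and Mlxipl in none, and 6 to 9 of the 10 genes were called, Acacb always being the higher one. Elovl6 was nearest to 0 at -2.70 and farthest at -3.92. Acaca was called when libraries were scaled to adipocyte markers (-1.41, adjusted p = 0.0148), without the filter (-1.48, adjusted p = 0.0453) and with DESeq2 (-1.47, adjusted p = 0.00536), over a range of adjusted p from 0.00536 to 0.216. Leaving out 1 sample each gave -1.86 to -1.03 for Acaca, -3.20 to -2.21 for Acly and -2.31 to -1.47 for Srebf1. It gave 828 to 2339 called genes over all tested genes, against 2821 with all samples, with 828 without control replicate 3 and 1312 without control replicate 2. It also gave 3 to 6 called genes among the further genes of fatty acid synthesis and related lipid steps (6 with all samples). Among the control genes it gave 3 to 6 (7 with all samples). Scaling to adipocyte markers gave 1803 called genes and 3 control genes. DESeq2 called 7 NADPH genes where edgeR called 3, and 3884 genes in all where edgeR called 2821. Over 8 other settings each, the log2 ratio of Acacb to Acaca stayed between 2.44 and 3.29 higher and that of Mlxipl to Srebf1 between 1.28 and 1.86 higher in cachectic mice. The cause of these shifts was not tested, except that leaving out a sample leaves fewer samples. RLE factors, plain totals and the adipocyte scaling moved the median log2 fold change of all genes by -0.00211, 0.0495 and -0.0569. A setting chosen after seeing the data, library sizes computed without the counts of the 10 genes, gave 8 called genes and -4.34 for Fasn. Samples with the same replicate number did not deviate together (correlations 0.00995, -0.021 and 0.0122), and the labels do not say whether they were paired. With the replicate block 8 of the 10 genes were called, the same ones as without it, 1881 genes were called in all, and no call among the 10 changed. The least counted of the lipogenic genes in any mouse had 129 counts.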

Other observations

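Within the adipocyte list the single genes differed in direction. Lep, which encodes leptin, had 999.1, 820.2 and 1242 CPM in the control and 107.6, 9.83 and 230.9 CPM in the cachectic mice (log2 fold change -3.14, SE 0.891, edgeR adjusted p = 0.0475). Pnpla2, which encodes the lipase ATGL, had 1326, 1511 and 1628 CPM in the control and 3353, 2445 and 3643 CPM in the cachectic mice (log2 fold change 1.08, adjusted p = 0.0197). Cidec, a lipid droplet protein gene, had a log2 fold change of 0.87 (adjusted p = 0.0322). Plin1, which coats the lipid droplet, had 1492, 2328 and 2401 CPM in the control and 1281, 633.6 and 385.0 CPM in the cachectic mice, a log2 fold change of -1.44 that did not pass the threshold (adjusted p = 0.057). Adipoq (0.54, adjusted p = 0.305), Fabp4 (0.36, adjusted p = 0.575) and Pparg (-0.28, adjusted p = 0.425) had overlapping groups. Like Plin1 and Lep, Cebpa (-0.95, adjusted p = 0.198), Lpl (-0.81, adjusted p = 0.137) and Retn (-0.60, adjusted p = 0.165) lay below all controls in every cachectic mouse. Cebpa, Lpl and Retn did not pass the threshold. Only Cidec and Pnpla2 lay above all controls. DESeq2 called 3 of the 16 adipocyte markers higher and 3 lower. Of the 9 progenitor markers, the collagen genes Col3a1 (-3.19, adjusted p = 0.00212) and Col1a1 (-2.61, adjusted p = 0.00564), the matrix proteoglycan gene Lum (-2.02, adjusted p = 0.0251) and Pi16 (-1.72, adjusted p = 0.0259) fell and Ly6a rose (0.97, adjusted p = 0.00935). The other 4 did not pass the threshold, with log2 fold changes of -0.75 for Pdgfra (adjusted p = 0.0518), -0.12 for Dpp4 (adjusted p = 0.641), -0.06 for Dcn (adjusted p = 0.873) and -0.03 for Cd34 (adjusted p = 0.951).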
